A study of Sus scrofa with 10 samples.

Results

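The SLC25 family comprises the mitochondrial carriers, small proteins that span the inner membrane and pass nucleotides, phosphate, carboxylates, amino acids and cofactors between the matrix and the cytosol. Most of them exchange one solute for another, so that ATP made in the matrix leaves as ADP enters, and phosphate enters beside it. In heart muscle, where oxidative phosphorylation supplies most of the ATP, the ADP/ATP carriers and the phosphate carrier are among the most abundant proteins of the inner membrane. The roles given here are those described for the human, mouse or rat proteins.

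Members were the genes whose name in the deposited tables starts with SLC25A and a number. There were 42 of them among 35670 gene identifiers, each with its own symbol. Of 45 such symbols in the RefSeq gene table of the pig, SLC25A29, SLC25A37 and SLC25A51 were not gene names in the files and were not analysed here. The members lay on 15 chromosomes and scaffolds of Sscrofa11.1, over spans of 2.95 to 515 kb (median 22.4 kb).

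The samples were libraries of nuclear RNA, which is rich in unspliced transcripts, from cardiomyocytes sorted from the hearts of wild-type (WT) minipigs (Sus scrofa). Libraries 8, 9 and 10 came from deoxycorticosterone acetate (DOCA) together with JK07 (DOCA plus JK07, n = 3), libraries 6 and 7 from DOCA alone (n = 2) and libraries 1 to 5 from phosphate-buffered saline (PBS, control, n = 5). DOCA is a mineralocorticoid given to animals to make them hypertensive, and JK07 is, per the series title, an agonist of ERBB4, which binds neuregulins on cardiomyocytes. The sources used here do not give breed, age, sex, heart chamber, doses or times. They do not say whether each library was a separate animal either, so p-values measure only how these samples vary, and that variation may be technical. The comparisons address what DOCA alone changed, what JK07 changed on top of it, and what remained different from control.

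Libraries held 28.1 to 106 M (mega) estimated counts, and ribosomal RNA scaffolds took 77.6% to 90.8% of them. The DOCA libraries stood apart from the others before any member was considered. Outside those scaffolds and the mitochondrial genome they held 6.87 and 3.30 M counts, against 9.03 to 12.9 M with DOCA plus JK07 and 8.67 to 13.9 M in control. Of 13198 genes with a median of at least 50 counts, 23.2% and 27.0% were listed at 0 in DOCA, against 0.636% to 4.36% with DOCA plus JK07 and 0.288% to 3.50% in control. Mitochondrially encoded genes took 2.58% and 0.488% of counts off the scaffolds in DOCA, against 4.40% to 8.26% with DOCA plus JK07 and 3.69% to 5.57% in control. The part of these differences in the results below was not tested. Summed cardiomyocyte markers (8 of 10 were in the files, all above 0 in every library) ranged from 5140 to 8380 CPM with DOCA plus JK07, 3657 to 5786 in DOCA and 4343 to 5208 in control, CPM being a count scaled by the size of its library after TMM normalization. Summed markers of fibroblasts, endothelial cells, macrophages and mural cells overlapped between the 3 groups, and the 4 lymphocyte markers and the 4 Schwann cell and neuron markers were all at 0 in both DOCA libraries. In such bulk RNA, fewer cells of a type and less RNA per cell cannot be told apart.

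The level of each carrier in control was ranked by TPM, an abundance scaled by transcript length and library size. SLC25A4, the ADP/ATP carrier of heart and skeletal muscle (also ANT1), ranked first with 38.9 ± 6.82 TPM (SD, n = 5). SLC25A3, the phosphate carrier, followed with 35.0 ± 6.77 TPM. SLC25A6, a second ADP/ATP carrier, had 20.8 ± 4.36 TPM, and SLC25A36, a pyrimidine nucleotide carrier, had 19.6 ± 4.35 TPM. These 4 made up 62.7% of the family's summed mean TPM with DOCA plus JK07, 62.9% in DOCA and 66.5% in control. The deposited TPM includes ribosomal RNA rows, so TPM is compared between groups here mainly by shares, ratios and ranks. The main tests used counts, given as CPM. TPM values set beside CPM below, and changes on log2(TPM + 1), an alternative, also move with the ribosomal RNA share. TMM factors were 0.511 and 1.06 in DOCA libraries 6 and 7, 0.871 to 1.35 with DOCA plus JK07 and 0.940 to 1.15 in control. A low factor raises CPM, so the place of library 6 among the libraries depends on the scaling.

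SLC25A12, the calcium-regulated aspartate/glutamate carrier of heart and brain, came next at 7.47 ± 2.31 TPM. The 7 that followed were SLC25A11 (oxoglutarate/malate carrier, 4.70 TPM), SLC25A30 (an uncoupling-protein-like carrier, 4.69 TPM), SLC25A28 (mitoferrin 2, an iron carrier, 4.37 TPM), SLC25A27 (uncoupling-protein-like, 3.46 TPM), SLC25A40 (glutathione import, 2.72 TPM), SLC25A5 (the ADP/ATP carrier of dividing cells, 2.45 TPM) and SLC25A13 (the liver-type aspartate/glutamate carrier, 2.28 TPM). Of the 11 neighbouring pairs among the first 12, 10 had overlapping ranges over the 5 controls, and the step between SLC25A36 and SLC25A12 was the exception. In TPM within a library, SLC25A3 exceeded SLC25A6, SLC25A12 exceeded SLC25A11 and SLC25A28 exceeded SLC25A27 in 5 of 5 controls. SLC25A4 exceeded SLC25A3 in 4 of 5, and the other 6 pairs kept their order in 2 to 4 of 5 controls. Of the other members, 18 averaged under 1 TPM in control, 5 of them at 0 in every control library. The deposited coverage, in reads per base, gave another order. In coverage SLC25A12 had 2.18 to 5.80 in control, below SLC25A11 (7.38 to 14.6), SLC25A30 (13.6 to 27.2) and SLC25A28 (12.8 to 28.3). SLC25A40 had 1.25 to 2.46. The places of these members thus depend on the measure.

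**Figure D1:**
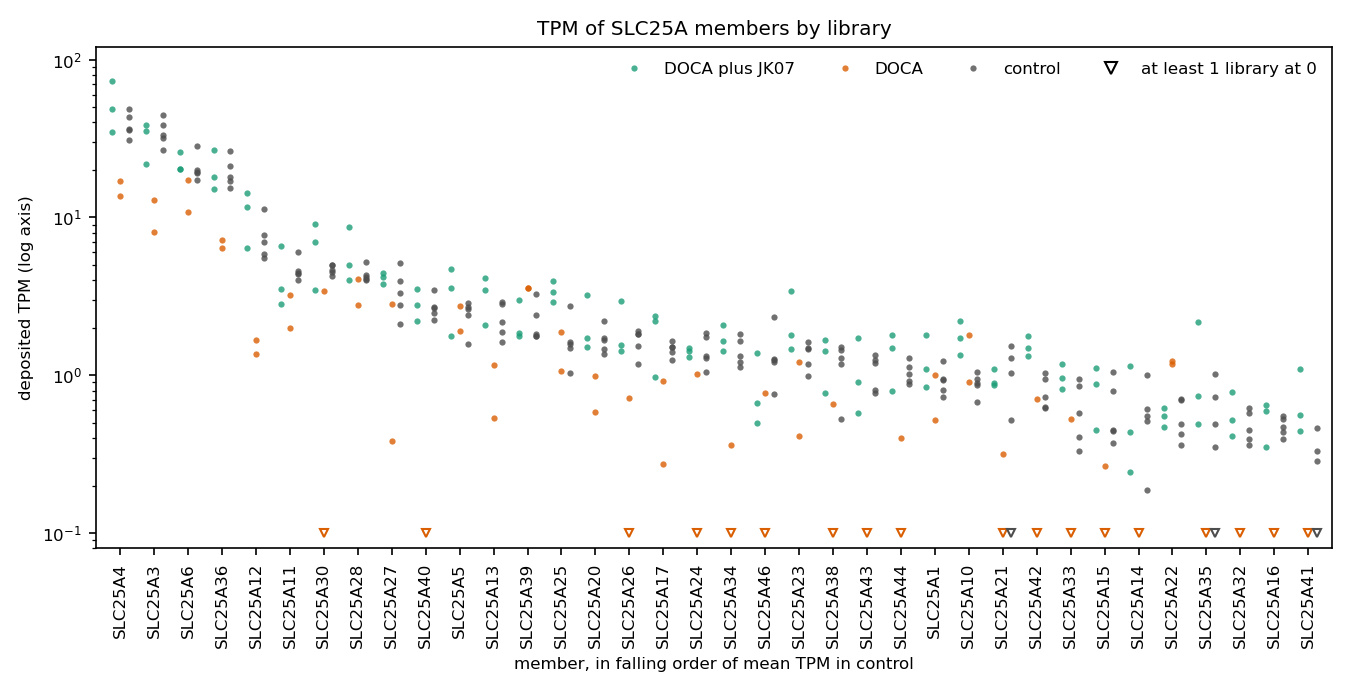
Deposited TPM of members above 0 in at least 1 control library (1 such member is not shown), on a log axis, in falling order of the control mean. Each point is a library (left to right within a member: DOCA plus JK07, DOCA, control), and open triangles at the bottom mark members listed at 0 in at least 1 library of that group. SLC25A4, SLC25A3, SLC25A6 and SLC25A36 lead in all 3 groups, and triangles of the DOCA group run from SLC25A30 and SLC25A40, among the 12 highest members, to the end of the order.

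The order of the 42 mean levels was much alike between groups, with Spearman's rho of 0.966 between DOCA plus JK07 and control and 0.843 between DOCA and control, given as a description across genes, all of which share their libraries' depth. The first 4 members led in every group. Single carriers moved within the order. SLC25A39, which takes part in glutathione import, ranked 5th in DOCA and 13th in control, and SLC25A22, a glutamate carrier, ranked 14th in DOCA and 32nd in control. SLC25A12 ranked 11th in DOCA and 5th in control. Ranks in DOCA also depend on the members listed at 0 there (16 in library 6 and 20 in library 7), whose means those zeros lower.

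Detection differed between the groups. Of the 42 members, 18 were above 0 in all 10 libraries and 4 were at 0 in all of them: SLC25A31, the ADP/ATP carrier of sperm, and SLC25A45, SLC25A48 and SLC25A53, whose substrates are less settled. SLC25A47, a carrier known from liver, was above 0 only in DOCA plus JK07 library 10, with 33 counts. Members at 0 numbered 16 and 20 in the DOCA libraries, against 4 to 5 with DOCA plus JK07 and 5 to 7 in control. Of the 34 members above 0 in all 5 controls, 5 were at 0 in both DOCA libraries, 11 were at 0 in 1 of them, and 0 were at 0 in any library of DOCA plus JK07.

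A listed 0 in the authors' tables does not show that no read was seen, since few values lay between 0 and a coverage of 1 read per base. Of all coverage values above 0 in the 10 libraries together, 3.96% lay under 1, and of the members' 5.28% did (18 of 341). Several of these were in DOCA, among them SLC25A12 (0.783 in library 6 and 0.307 in library 7). SLC25A25 had 0.434 and SLC25A38 0.529 in library 7. A coverage of 1 was thus no strict floor in the DOCA libraries. For each of the 26 member values at 0 in DOCA among the 37 members tested, the CPM that a coverage of 1 would have given in that library was set beside the controls. In 8 of the 26 all 5 controls lay above that level, and in 10 of the 26 none did. For SLC25A40 a coverage of 1 corresponded to 6.96 CPM in DOCA library 6 and 9.10 CPM in library 7, while the controls had 5.13 to 7.77 CPM. For SLC25A30 it corresponded to 1.67 CPM in library 7, while the controls had 10.3 to 13.6 CPM.

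**Figure D2:**
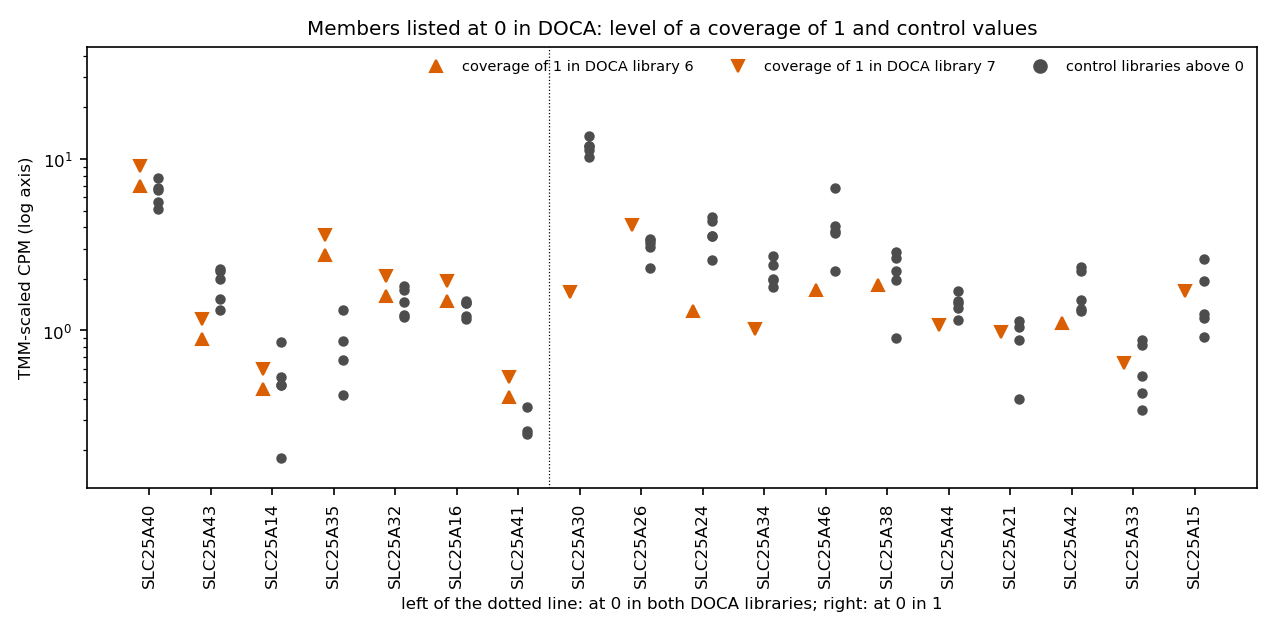
Members listed at 0 in both DOCA libraries (left of the dotted line) or in 1 of them (right, 1 member not shown), with the TMM-scaled CPM that a coverage of 1 would have given in the DOCA library concerned (triangles) and the control libraries above 0 (points), on a log axis. All control points lie above the triangles for SLC25A43, SLC25A30, SLC25A24, SLC25A34, SLC25A46, SLC25A44 and SLC25A42, while for SLC25A40, SLC25A16 and SLC25A32 they overlap the triangles or lie below them.

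Of the 42 members, 37 passed the filter on low counts and were tested with edgeR's quasi-likelihood F test, with p-values adjusted over all 17251 genes tested (Benjamini-Hochberg, threshold 0.05). In DOCA against control, 8 of 37 members were lower (21.6%), beside 19.7% of all genes tested, and 3 of 37 were higher (8.11%), beside 5.73% of all genes tested. Both shares were near those of all genes, so the counts show nothing particular to the carriers. With upper quartile scaling the split over all genes was 2868 lower and 1523 higher, in place of 3403 and 988, with a median of -0.39. The median log2 change was -0.99 over the members and -0.63 over all genes, and with each 0 placed at a coverage of 1 it was -0.30 over the members and 0.01 over all genes. Without library 7 the median over the members was -0.53, above the -0.82 over all genes, and over all alternatives the members' median ran from -1.67 to -0.30. Of the 8 lower members, 3 were above 0 in every library (SLC25A3, SLC25A12 and SLC25A13) and 5 were at 0 in both DOCA libraries (SLC25A14, SLC25A16, SLC25A32, SLC25A40 and SLC25A43). The 3 higher members were SLC25A10, SLC25A22 and SLC25A39. Weighting each library by its own quality called 0 members in either direction (94 lower and 67 higher over all genes), while log2(TPM + 1) called 17 lower and 1 higher.

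In DOCA plus JK07 against DOCA, 8 of 37 members were higher (21.6%), beside 14.7% of all genes tested, and 2 of 37 were lower (5.41%), beside 2.25%. The 8 higher members were the 8 that were lower in DOCA against control. The 2 lower ones were SLC25A22 and SLC25A39. These comparisons share the 2 DOCA libraries, so the reverse pattern is no separate evidence. Under upper quartile scaling the split over all genes was 752 lower and 2095 higher, in place of 388 and 2542, with a median of 0.31. The median log2 change was 0.94 over the members and 0.55 over all genes, and with each 0 placed at a coverage of 1 it was 0.23 and 0.03. Over all alternatives the members' median ran from 0.23 to 2.09. In a fit of only the 2 groups compared, SLC25A3, SLC25A12, SLC25A13, SLC25A14, SLC25A22 and SLC25A39 missed the threshold (adjusted p = 0.0535 to 0.0813), and quality weights called 0 members. In DOCA plus JK07 against control, 0 of 37 members were called in either direction by edgeR, beside 0% of all genes tested. At an unadjusted p under 0.05 there were 2 of 37 (SLC25A3 and SLC25A10), beside 4.65% of all genes, and DESeq2 called 1 (SLC25A10).

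**Figure D3:**
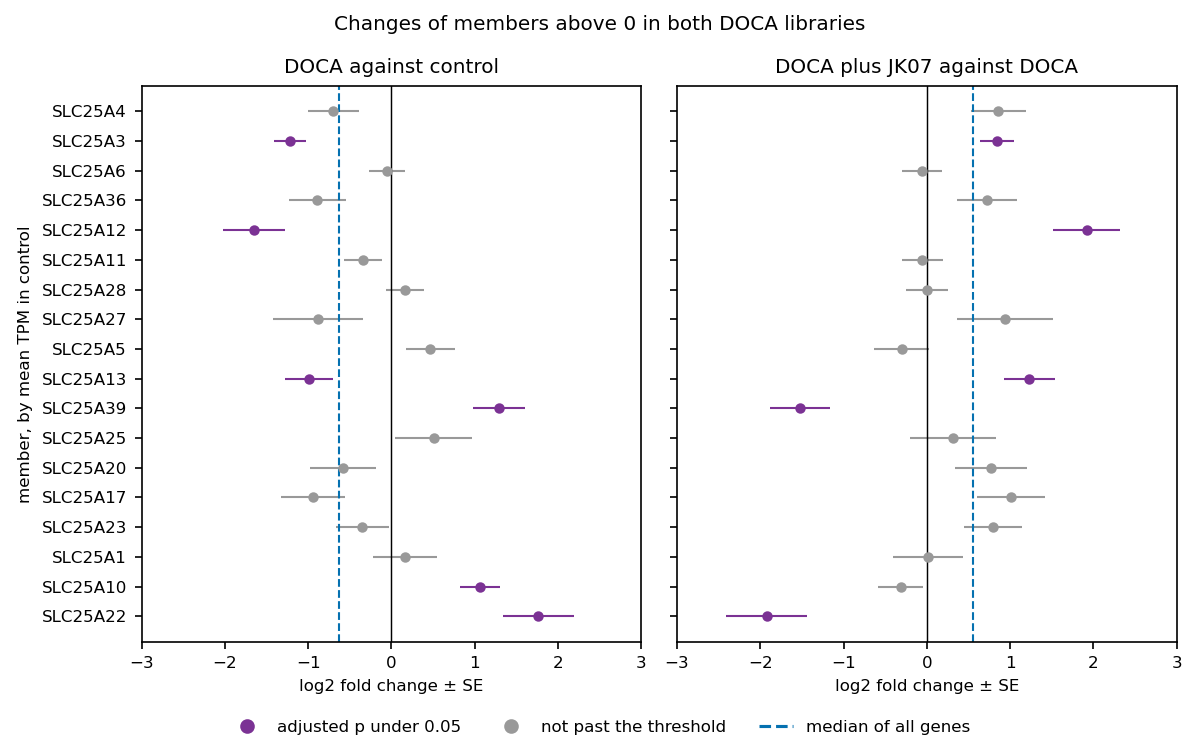
Log2 fold change with its standard error (edgeR) for the 18 members above 0 in all 10 libraries, in DOCA against control (left) and DOCA plus JK07 against DOCA (right), from the highest to the lowest mean TPM in control. Purple points passed an adjusted p of 0.05, grey points did not, and the dashed line is the median of all genes, at -0.63 and 0.55.

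The ADP/ATP carriers exchange matrix ATP for cytosolic ADP, and none of them passed the test in any comparison. SLC25A4 (ENSSSCG00000015790, chromosome 15, 46193746 to 46200987) had 119, 115 and 145 CPM with DOCA plus JK07, 96.1 and 43.2 CPM in DOCA and 122, 134, 112, 110 and 88.2 CPM in control. In CPM, DOCA library 7 was lower than all others, while library 6 lay within the control range. In TPM, libraries 6 and 7 had 16.9 and 13.7, both below every control (31.1 to 48.3). The place of library 6 thus depends on the measure. From counts, the log2 change was -0.70 (SE 0.31, adjusted p = 0.135) in DOCA against control and 0.86 (SE 0.33, adjusted p = 0.115) in DOCA plus JK07 against DOCA. SLC25A6 (scaffold AEMK02000569.1, 792563 to 796798) had 15.4, 21.0 and 15.9 CPM with DOCA plus JK07, 19.2 and 17.0 CPM in DOCA and 17.5, 14.8, 18.6, 18.2 and 25.02 CPM in control. The 3 groups overlapped, and the log2 change in DOCA against control was -0.06 (SE 0.22, adjusted p = 0.879).

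SLC25A5, the third of these carriers, had 2.61, 1.77 and 2.79 CPM with DOCA plus JK07, 3.28 and 2.61 CPM in DOCA and 2.29, 2.19, 2.28, 1.43 and 2.45 CPM in control. In CPM both DOCA values lay above the 5 controls, and the log2 change was 0.47 (SE 0.30, adjusted p = 0.284). In TPM they were 1.92 and 2.74, within the controls (1.58 to 2.87). Within the trio, SLC25A4 made up 67.1%, 61.0% and 70.6% of the summed TPM with DOCA plus JK07, 56.9% and 40.5% in DOCA and 65.6%, 70.8%, 62.4%, 63.5% and 49.8% in control. DOCA library 7 had the lowest share and library 6 lay within the controls. These 3 genes are close paralogs, and the sources used here do not say how reads shared between them were assigned, so their split is uncertain.

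SLC25A3, the phosphate carrier that feeds phosphate to ATP synthase, was lower in DOCA. SLC25A3 (ENSSSCG00000000886, chromosome 5, 85284311 to 85292328) had 30.7, 25.4 and 26.8 CPM with DOCA plus JK07, 16.3 and 14.5 CPM in DOCA and 38.0, 43.6, 29.9, 35.4 and 31.9 CPM in control. DOCA lay below all other libraries, and DOCA plus JK07 overlapped control. DOCA changed it by -1.22 (SE 0.19, adjusted p = 0.00141) on the log2 scale against control, which was -0.58 relative to the median of all genes. It remained past the threshold when each library was left out and missed it with quality weights per library (adjusted p = 0.054), over a range of 3.6e-07 to 0.054 in all alternatives. A log2 change of 0.84 (SE 0.20, adjusted p = 0.0179) was found in DOCA plus JK07 against DOCA, or 0.29 relative to the median of all genes. That call was lost without library 7 (adjusted p = 0.0673), without library 8 (0.0792), with upper quartile scaling (0.0653), with only the groups compared (0.0813) and with quality weights (0.157). The span of SLC25A3 holds the small RNA gene SNORA53 on the same strand.

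The ATP-Mg/phosphate carriers, which set the adenine nucleotide pool of the matrix, gave no call among 4 members tested. SLC25A25 had 5.64, 8.81 and 6.17 CPM with DOCA plus JK07, 8.40 and 2.64 CPM in DOCA and 6.08, 2.25, 4.01, 3.54 and 3.53 CPM in control. SLC25A23 had 3.40 to 5.24 CPM with DOCA plus JK07, 1.79 and 2.98 CPM in DOCA and 2.16 to 3.82 CPM in control. SLC25A24 had 0 CPM in DOCA library 6 and 2.84 CPM in library 7. SLC25A41 was at 0 in both DOCA libraries and in control libraries 1 and 4, and had 0.308 to 0.601 CPM with DOCA plus JK07.

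Among the carriers of dicarboxylates, tricarboxylates, aspartate and glutamate, 2 of 7 were lower and 2 of 7 higher in DOCA against control (28.6% each, beside 19.7% and 5.73% of all genes). SLC25A12 and SLC25A13 export aspartate in exchange for glutamate, the electrogenic step of the malate-aspartate shuttle that carries reducing equivalents into the matrix. SLC25A12 (ENSSSCG00000015949, chromosome 15, 77895938 to 78098383) had 19.0, 14.1 and 18.9 CPM with DOCA plus JK07, 6.27 and 2.84 CPM in DOCA and 12.99, 20.7, 12.2, 15.4 and 10.3 CPM in control. Every other library exceeded both DOCA libraries. On the log2 scale it changed by -1.65 (SE 0.38, adjusted p = 0.0117) in DOCA against control and by 1.92 (SE 0.40, adjusted p = 0.00883) in DOCA plus JK07 against DOCA. Relative to the median of all genes these were -1.02 and 1.37. Without library 7 the first was -1.20 (adjusted p = 0.0511), and with only the groups compared the second was 1.88 (adjusted p = 0.0535). Quality weights lost both (adjusted p = 0.122 and 0.146). HAT1 overlaps SLC25A12 on the other strand, and the sources used here do not say whether counting used strand.

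SLC25A13 (chromosome 9, 75781361 to 75980518) had 6.28, 5.10 and 6.11 CPM with DOCA plus JK07, 2.25 and 2.71 CPM in DOCA and 3.39, 5.77, 4.37, 6.55 and 4.54 CPM in control. DOCA again lay below every other library. Its log2 change was -0.99 (SE 0.29, adjusted p = 0.0344) in DOCA against control, and this call was lost when any of libraries 2 to 8 or 10 was left out (adjusted p = 0.0505 to 0.128). It was 1.23 (SE 0.31, adjusted p = 0.0223) in DOCA plus JK07 against DOCA, lost without library 6 (0.0803), 8 (0.0799) or 10 (0.0656). Relative to the median of all genes these were -0.35 and 0.68. With upper quartile scaling the adjusted p was 0.0989 and 0.0628, with only the groups compared 0.0751 and 0.0642, and with quality weights 0.339 and 0.317. The ratio of SLC25A12 to SLC25A13 in TPM was 3.38, 3.10 and 3.45 with DOCA plus JK07, 3.10 and 1.18 in DOCA and 2.54 to 4.28 in control, so that only library 7 fell outside the controls on the low side. In coverage SLC25A13 exceeded SLC25A12 in every library, with 4.90 to 11.3 against 2.18 to 5.80 in control. Which of them is higher thus depends on the measure.

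SLC25A10, the dicarboxylate carrier that exchanges malate or succinate for phosphate, was higher in DOCA. SLC25A10 (ENSSSCG00000033620, chromosome 12, 1189903 to 1197301) had 3.05, 3.19 and 3.17 CPM with DOCA plus JK07, 3.71 and 4.08 CPM in DOCA and 1.37, 1.76, 2.38, 1.89 and 1.92 CPM in control. In CPM the 3 groups did not overlap, with DOCA highest and control lowest. In TPM, DOCA libraries 6 and 7 had 0.906 and 1.79, DOCA plus JK07 1.34 to 2.22 and control 0.678 to 1.05. There DOCA overlapped both other groups. In DOCA against control its log2 change was 1.06 (SE 0.24, adjusted p = 0.0109), and it passed the threshold when each library was left out, but not on log2(TPM + 1) (0.29, adjusted p = 0.333). Relative to the median of all genes the change was 1.70. It changed by -0.31 (SE 0.27, adjusted p = 0.462) in DOCA plus JK07 against DOCA and by 0.75 (SE 0.21, adjusted p = 1.0) in DOCA plus JK07 against control. For this last comparison DESeq2 gave 0.71 (adjusted p = 0.0196).

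SLC25A22, a proton-coupled glutamate carrier, was higher in DOCA. SLC25A22 (ENSSSCG00000012844, chromosome 2, 491293 to 498767) had 0.727, 1.16 and 0.784 CPM with DOCA plus JK07, 4.40 and 2.34 CPM in DOCA and 1.26, 0.623, 1.38, 0.811 and 0.884 CPM in control. DOCA lay above all other libraries, library 6 most in CPM, while in TPM libraries 6 and 7 had 1.23 and 1.17. Its log2 change was 1.76 (SE 0.42, adjusted p = 0.0149) in DOCA against control and -1.92 (SE 0.49, adjusted p = 0.0241) in DOCA plus JK07 against DOCA, or 2.40 and -2.47 relative to the median of all genes. Without library 6 they were 1.24 (adjusted p = 0.142) and -1.39 (adjusted p = 0.143), and the second also missed the threshold without library 8 (0.071) or 10 (0.0546). An unnamed gene overlaps SLC25A22 on the other strand.

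**Figure D4:**
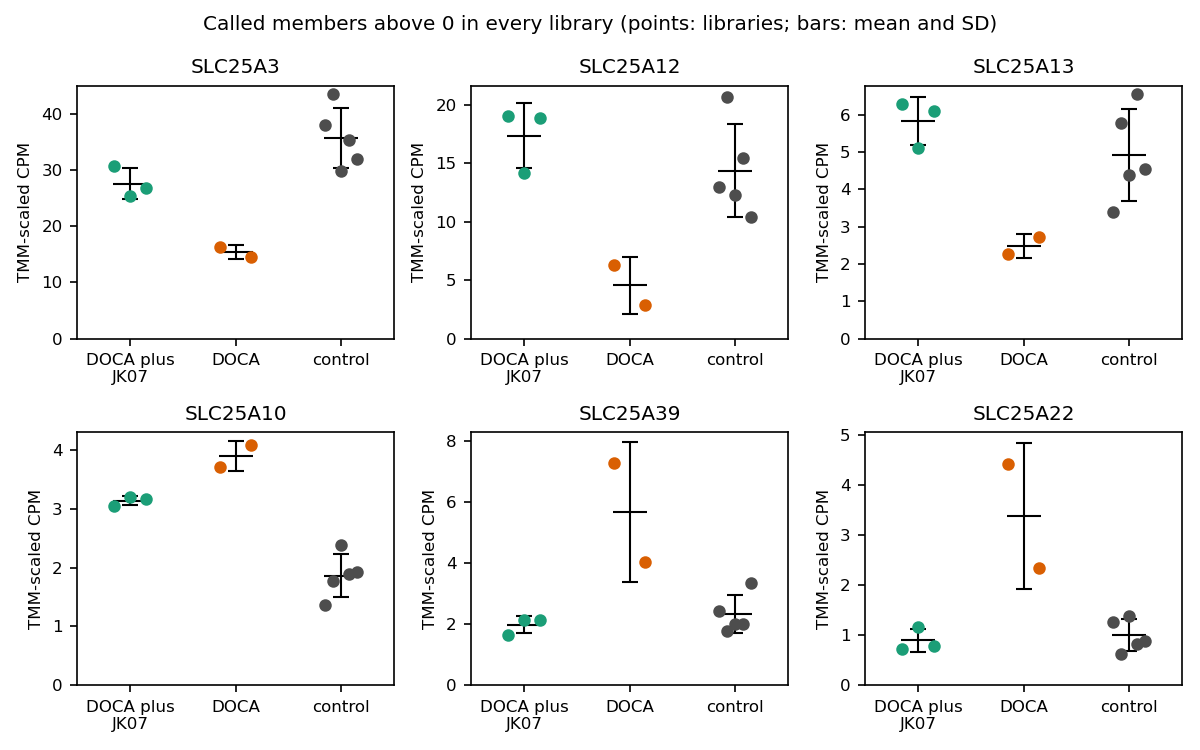
TMM-scaled CPM in each library (points) with mean and SD (bars) for the 6 members that were above 0 in every library and passed the test in DOCA against control. SLC25A3, SLC25A12 and SLC25A13 are lowest in DOCA, SLC25A39 and SLC25A22 highest there, and SLC25A10 has 3 separate groups with DOCA plus JK07 between DOCA and control.

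SLC25A11, the oxoglutarate/malate carrier of the same shuttle, had 4.26, 4.66 and 6.42 CPM with DOCA plus JK07, 5.61 and 5.02 CPM in DOCA and 5.58, 8.28, 7.14, 6.52 and 6.26 CPM in control. The groups overlapped, and the log2 change in DOCA against control was -0.35 (SE 0.23, adjusted p = 0.299). SLC25A1, the citrate carrier that exports the carbon of acetyl-CoA for lipid synthesis, had 1.07 to 1.88 CPM with DOCA plus JK07, 1.51 and 1.64 CPM in DOCA and 1.06 to 1.99 CPM in control. SLC25A21, the oxoadipate carrier and the longest member at 515 kb, was at 0 in DOCA library 7 and control library 1.

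SLC25A20, the carnitine/acylcarnitine carrier that brings long-chain fatty acids to beta oxidation, had 3.12, 2.23 and 1.17 CPM with DOCA plus JK07, 1.31 and 1.24 CPM in DOCA and 1.88, 2.38, 1.68, 1.96 and 1.63 CPM in control. Each DOCA value was below the 5 controls, and the log2 change of -0.58 (SE 0.40, adjusted p = 0.310) did not pass. Of the enzymes on either side of it, CPT1B, the muscle carnitine palmitoyltransferase of the outer membrane, was higher in DOCA, with 43.5, 52.0 and 48.8 CPM in DOCA plus JK07, 96.3 and 28.8 CPM in DOCA and 21.3, 29.2, 36.1, 20.2 and 25.3 CPM in control. The increase against control was 1.24 on the log2 scale (SE 0.39, adjusted p = 0.0442), although DOCA library 7 lay within the control range. CROT, a peroxisomal carnitine acyltransferase, was at 0 in both DOCA libraries, with 2.60 to 3.07 CPM in DOCA plus JK07 and 3.03 to 5.69 CPM in control. A coverage of 1 corresponded to 2.11 and 2.75 CPM for CROT in libraries 6 and 7, below all 5 controls.

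Among the uncoupling-protein-like carriers, whose transport is less well defined than that of UCP1 in brown fat, 1 of 3 was called. SLC25A30 had 14.8, 9.84 and 15.5 CPM with DOCA plus JK07, 16.8 and 0 CPM in DOCA and 11.2, 11.95, 13.6, 11.8 and 10.3 CPM in control. In CPM the 2 DOCA libraries thus lay at opposite ends, library 6 above every other library and library 7 at 0. In TPM library 6 had 3.43, below the 5 controls (4.23 to 5.03), so its place depends on the measure. SLC25A27 had 12.9, 14.9 and 9.88 CPM with DOCA plus JK07, 2.59 and 10.5 CPM in DOCA and 11.09, 13.02, 19.3, 9.96 and 7.10 CPM in control. Here library 6 was the low one, and the log2 change of -0.89 (SE 0.54, adjusted p = 0.266) did not pass. SLC25A14 had 0.333, 0.253 and 0.701 CPM with DOCA plus JK07, 0 in both DOCA libraries and 0.482, 0.854, 0.180, 0.483 and 0.533 CPM in control. It passed in DOCA against control (adjusted p = 0.00672), but a coverage of 1 corresponded to 0.457 and 0.598 CPM in libraries 6 and 7, within the control range.

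Of the 10 carriers of cofactors, nucleotides and glutathione, 3 were lower and 1 higher in DOCA against control, beside 19.7% and 5.73% of all genes. Against DOCA, 3 were higher and 1 lower with DOCA plus JK07, beside 14.7% and 2.25%. The same 3 members, SLC25A16, SLC25A32 and SLC25A40, were at 0 in both DOCA libraries. SLC25A39 and SLC25A40 are related carriers needed for glutathione import into the matrix. SLC25A39 (ENSSSCG00000030167, chromosome 12, 18915422 to 18919757) had 1.65, 2.13 and 2.14 CPM with DOCA plus JK07, 7.30 and 4.05 CPM in DOCA and 2.44, 1.78, 2.01, 2.01 and 3.35 CPM in control. DOCA again exceeded all other libraries. The log2 change was 1.29 (SE 0.32, adjusted p = 0.0166) in DOCA against control and -1.52 (SE 0.36, adjusted p = 0.0166) in DOCA plus JK07 against DOCA. Relative to the median of all genes these were 1.93 and -2.07. Without library 6 they were 0.80 (adjusted p = 0.140) and -1.04 (adjusted p = 0.0929), and the second also missed the threshold without library 8 (0.0541). On log2(TPM + 1) they were 0.53 (adjusted p = 0.129) and -0.53 (adjusted p = 0.153).

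SLC25A40 (chromosome 9, 92481564 to 92528186) had 4.37, 7.51 and 5.61 CPM with DOCA plus JK07, 0 in both DOCA libraries and 5.65, 7.77, 6.77, 6.64 and 5.13 CPM in control. It had the lowest adjusted p of all members in DOCA against control (1.21e-05), yet the level of a coverage of 1 in these 2 libraries was no lower than most controls. With its zeros placed at that level the log2 change was 0.16 (adjusted p = 0.682). No fold was therefore read for SLC25A40, nor for the other members at 0 in a whole group.

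SLC25A16, which has been tied to coenzyme A in the matrix, had 1.42, 1.13 and 1.25 CPM with DOCA plus JK07, 0 in both DOCA libraries and 1.45, 1.48, 1.44, 1.17 and 1.22 CPM in control. SLC25A32, a carrier of folate and flavin nucleotide, had 2.06, 1.47 and 1.10 CPM with DOCA plus JK07, 0 in both DOCA libraries and 1.73, 1.82, 1.23, 1.47 and 1.20 CPM in control. Both passed the test against control (adjusted p = 6.14e-05 and 8.95e-05). A coverage of 1 corresponded to 1.48 and 1.93 CPM for SLC25A16 and to 1.59 and 2.07 CPM for SLC25A32 in libraries 6 and 7, so neither 0 lay clearly under the controls. DNA2 overlaps SLC25A16 on the same strand.

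SLC25A36 had 80.8, 61.6 and 43.9 CPM with DOCA plus JK07, 50.6 and 24.9 CPM in DOCA and 73.1, 90.0, 66.2, 57.3 and 63.4 CPM in control. Both DOCA libraries were below the 5 controls, but DOCA plus JK07 overlapped both groups, and the log2 change of -0.89 (SE 0.34, adjusted p = 0.0915) did not pass. SLC25A17, a carrier of the peroxisomal rather than the mitochondrial membrane, had 1.34 to 2.40 CPM with DOCA plus JK07, 0.640 and 1.20 CPM in DOCA and 1.60 to 1.93 CPM in control, a log2 change of -0.94 in DOCA (SE 0.38, adjusted p = 0.111). SLC25A42, a coenzyme A carrier, had 2.62 to 3.31 CPM with DOCA plus JK07, 0 and 1.67 CPM in DOCA and 1.31 to 2.35 CPM in control, and did not pass (adjusted p = 0.518 in DOCA against control). SLC25A26 (S-adenosylmethionine) and SLC25A33 (pyrimidine nucleotides) were each above 0 in DOCA library 6 and at 0 in library 7.

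SLC25A28, the iron carrier, differed little. It had 4.31, 4.69 and 6.07 CPM with DOCA plus JK07, 5.53 and 4.52 CPM in DOCA and 4.03, 3.90, 5.73, 4.44 and 4.30 CPM in control, and DOCA changed it by 0.17 on the log2 scale (SE 0.23, adjusted p = 0.624). The amino acid carriers SLC25A15 (ornithine), SLC25A38 (glycine, for heme synthesis) and SLC25A44 (branched-chain amino acids) were each at 0 in 1 DOCA library, and none of the 3 passed. SLC25A46, an outer membrane member tied to mitochondrial shape, had 0 and 2.54 CPM in DOCA, against 1.37 to 3.51 CPM with DOCA plus JK07 and 2.22 to 6.75 CPM in control.

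Of the members whose substrate is not settled, SLC25A43 (ENSSSCG00000012624, chromosome X, 97868696 to 97906760) had 1.35, 1.16 and 2.05 CPM with DOCA plus JK07, 0 in both DOCA libraries and 2.01, 2.24, 1.53, 2.28 and 1.31 CPM in control. It was the 1 of 7 members at 0 in both DOCA libraries whose 5 controls all lay above the coverage-1 level, which was 0.891 CPM in library 6 and 1.16 CPM in library 7. With its zeros placed there, the log2 change was -1.03 (adjusted p = 0.0407) in DOCA against control and 0.72 (adjusted p = 0.178) in DOCA plus JK07 against DOCA. SLC25A35 was at 0 in both DOCA libraries and in control library 5, and a coverage of 1 corresponded to 2.76 and 3.61 CPM in libraries 6 and 7, above every control (at most 1.32 CPM). Its controls above 0 had coverages of only 0.246 to 0.794, so that level had to lie above them and does not bear on its zeros. SLC25A34 was at 1.08 CPM in library 6 and 0 in library 7, with 1.72 to 2.70 CPM in DOCA plus JK07 and 1.79 to 2.71 CPM in control.

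Genes that work beside the carriers were taken from 9 lists of 58 genes, 46 of which were tested. In DOCA against control 8 were lower (17.4%, beside 19.7% of all genes) and 1 was higher (2.17%, beside 5.73%). In DOCA plus JK07 against DOCA 1 was lower (2.17%, beside 2.25%) and 5 were higher (10.9%, beside 14.7%). Against control DOCA plus JK07 had 0 calls by edgeR. Both comparisons with DOCA thus called partner genes at or below the share of all genes. Of the 4 malate-aspartate shuttle enzymes 3 were lower in DOCA, beside 19.7% of all genes. MDH1, the cytosolic malate dehydrogenase, had 17.3, 12.3 and 26.9 CPM with DOCA plus JK07, 2.41 and 5.65 CPM in DOCA and 19.9, 28.3, 22.4, 22.8 and 15.9 CPM in control. Its log2 change was 2.23 (SE 0.46, adjusted p = 0.00814) in DOCA plus JK07 against DOCA. MDH2 and GOT2, the mitochondrial malate dehydrogenase and aspartate aminotransferase, changed by -1.01 (SE 0.27, adjusted p = 0.0268) and -1.72 (SE 0.41, adjusted p = 0.0151) in DOCA against control, and GOT1, the cytosolic aminotransferase, did not pass (-1.08, SE 0.37, adjusted p = 0.0625).

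VDAC2, an outer membrane channel for ATP and ADP, had 9.53 to 12.7 CPM with DOCA plus JK07, 6.55 and 5.29 CPM in DOCA and 14.3, 15.6, 12.96, 12.3 and 11.8 CPM in control. It changed by -1.18 (SE 0.19, adjusted p = 0.00179) in DOCA against control and 0.90 (SE 0.20, adjusted p = 0.0134) in DOCA plus JK07 against DOCA. TOMM70, the outer membrane receptor for carrier precursors, was the 1 of 13 import genes called, at -1.21 (SE 0.31, adjusted p = 0.0191) in DOCA against control. NNT, the proton-driven transhydrogenase that supplies NADPH to the matrix, had 21.3, 24.96 and 23.7 CPM with DOCA plus JK07, 5.22 and 7.83 CPM in DOCA and 25.5, 23.2, 24.1, 25.3 and 17.9 CPM in control. It changed by -1.83 (SE 0.23, adjusted p = 0.00030) in DOCA against control. Among the sideroflexins, SFXN5 was at 0 in both DOCA libraries and in control library 5, and a coverage of 1 there corresponded to 1.87 and 2.44 CPM, above every control (at most 1.04 CPM). SFXN4 changed by 1.03 (SE 0.30, adjusted p = 0.0478) in DOCA plus JK07 against DOCA. MCUR1, a regulator of the calcium uniporter, had 0.825, 0.976 and 0.584 CPM with DOCA plus JK07, 2.25 and 2.74 CPM in DOCA and 1.04 to 1.51 CPM in control. It changed by -1.65 (SE 0.39, adjusted p = 0.0165) in DOCA plus JK07 against DOCA, and the other 6 uniporter genes were not called.

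Summed over the family, members took 2306, 2235 and 2330 CPM (unscaled) of the counts outside the ribosomal RNA scaffolds and the mitochondrial genome with DOCA plus JK07. They took 1491 and 1417 CPM in DOCA and 2552, 2662, 2472, 2438 and 2244 CPM in control. DOCA was below all other libraries, and DOCA plus JK07 overlapped control. As TMM-scaled CPM the sums were 367, 337 and 350 with DOCA plus JK07, 262 and 156 in DOCA and 351, 401, 345, 329 and 304 in control. SLC25A4 and SLC25A36 weigh most in these sums, with 9629 and 6561 of 29763 member counts in library 8 and 1292 and 743 of 4673 in library 7. Neither passed the edgeR test in DOCA against control (adjusted p = 0.135 and 0.0915), so the sums do not describe each member.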

How the data were processed

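Nuclear RNA of sorted cardiomyocytes was measured in 10 libraries (DOCA plus JK07, n = 3; DOCA, n = 2; control, n = 5). The submitters' processing notes name Sscrofa11.1 as the build and StringTie, SAMtools and edgeR as tools, with no aligner, strand setting or annotation in the sources used here. The deposited tables of the single libraries hold, per the file headers, coverage (signal), FPKM (not used) and TPM of each gene. The authors also deposited 1 table of whole-number estimated counts with no gene column. It was joined to the sorted gene identifiers, after which zeros of counts and coverage coincided in 99.998% of values (62.6% when moved by 1 line). Repeated identifiers within a library were summed for TPM and coverage.

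Counts were tested with edgeR 4.0.16 (R 4.3.3): TMM scaling, filterByExpr, quasi-likelihood F test, group as the only term, all 10 libraries in 1 fit. The SE is the size of the log2 fold change over the root of F. CPM uses all counts of a library, ribosomal RNA scaffolds included. With 2 DOCA libraries, the spread came mainly from the other groups; the common biological coefficient of variation was 0.873. DESeq2 1.42.0 and limma 3.58.1 served as alternatives. The CPM of a coverage of 1 is the gene's median count per unit of coverage divided by the scaled library size. Coordinates are 1-based, as the files give them, and intervals were not given, since estimated counts are not independent molecules.

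The members, roles and partner lists were chosen with earlier results of these data known. Values in every library were given for the 12 highest members in control, the members past the threshold in any comparison and those at 0 in a whole group. Of partner genes, at most 3 per direction, list and comparison were named, by lowest adjusted p. The values of 1 member are not reported here.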

Additional observations from a re-analysis of the deposited data

Results flagged for a closer look

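Each of the 37 tested members was examined for a control library apart from the other 4, and 1 was marked. SLC25A5 had 1.43 CPM in control library 4, the lowest of the 5, while the next lowest control had 2.19 CPM. By chance about 1 group in 20 is marked in this way.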

How the results depend on the processing

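No paired analysis was possible because the libraries are numbered 1 to 10 with no number shared between groups. In DOCA against control, lower members numbered 7 to 16 when 1 library was left out (16 without library 6), and higher members 1 to 3. Quality weights per library gave 0 and 0, log2(TPM + 1) gave 17 and 1, and log2(TPM + 0.1) gave 19 and 0. In DOCA plus JK07 against DOCA, lower members numbered 0 to 2 and higher members 6 to 16 when 1 library was left out (16 without library 6, 13 without library 7). Quality weights gave 0 and 0, log2(TPM + 1) gave 0 and 25, log2(TPM + 0.1) gave 0 and 26, and a fit of only the groups compared gave 0 and 6. In DOCA plus JK07 against control, DESeq2 called 1 higher member and every other alternative 0. The cause was not tested. The first 12 members by level were shared by 11 to 12 when 1 control was left out.

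Placing each 0 at a coverage of 1, an alternative chosen after seeing the data, turned the log2 change of SLC25A40 (0.16), SLC25A32 (0.13) and SLC25A16 (0.17) in DOCA against control. It did so for SLC25A40 (-0.29), SLC25A14 (-0.16), SLC25A32 (-0.068) and SLC25A16 (-0.26) in DOCA plus JK07 against DOCA. On log2(TPM + 1) and log2(TPM + 0.1), SLC25A10 in DOCA plus JK07 against DOCA was 0.25 and 0.41. By construction the placing raises the DOCA values. Of the single members' results, 199 of those leaving out a library and 168 of the others kept direction and call, and 21 and 43 kept direction but missed the threshold. Where leaving out a library left 1 DOCA library, it was assumed to vary like the other groups.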

Other observations

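Some members are neighbours in the genome. SLC25A43 and SLC25A5 lie on chromosome X, at 97868696 to 97906760 and 97919290 to 97922239, both on the forward strand. In the DOCA libraries SLC25A43 was at 0 while SLC25A5 had 3.28 and 2.61 CPM. SLC25A23 and SLC25A41, both ATP-Mg/phosphate carriers, follow each other on chromosome 2, at 72625583 to 72641791 and 72647470 to 72655473. In DOCA SLC25A23 had 1.79 and 2.98 CPM, and SLC25A41 was at 0.

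The span of the gene varied with the change among the 18 members above 0 in all libraries. Spearman's rho between span and log2 change was -0.595 in DOCA against control, and -0.240 over the 9279 tested genes above 0 in both DOCA libraries. In DOCA plus JK07 against DOCA it was 0.725 and 0.267. The points share their libraries, and the part of span in the changes was not tested. Of the 42 members, 15 overlap another listed gene, 10 on the other strand and 6 on the same strand.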
